A study of Solanum commersonii and Solanum tuberosum with 8 samples.

Results

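The 35S::AtCBF3 column of Solanum tuberosum, the cultivated potato, is 1 of 8 columns of log2 ratios from 2-colour microarrays of leaf RNA, and it was taken by the title of its sample. It holds 1 value for each of 11366 array clones, and all 11366 are described. The transgenic plants came from 2 lines that carry the Arabidopsis gene CBF3 behind the constitutive 35S promoter, and they were compared with S. tuberosum wild type. Both genotypes were 3 weeks old, grew at 25°C under a light intensity of 350 in the labels' unit in days of 16 h light and 8 h dark, and were harvested 8 h after dawn. Neither group was exposed to cold, so temperature and light did not differ between them. The value of a clone combines 2 slides, which the description counts as 2 replicates, and which line was on which slide and how many plants were pooled is not stated. The genotype field names the transgene with the abbreviation of S. commersonii, but its organism, source name and title all give S. tuberosum, and the column was read so.

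The other columns serve as context. They hold 35S::AtCBF3 in Solanum commersonii, a freezing-tolerant wild relative (3 lines, 3 slides), and wild type of each species after 2 h, 24 h and 7 d at 2°C under a light intensity of 50, each against warm wild type of its own species. A deposited column carries no error, since slides were combined before deposit. No spread between replicates, test or p-value could be had, and all results are sizes, ranks and counts of 1 value per clone. A positive ratio was read as higher in the transgenic plants, which the labels make likely but do not settle. With the opposite direction, higher and lower would change places throughout.

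CBF3, also called DREB1A, is a transcription factor of the AP2/ERF family that cold induces within hours in Arabidopsis. It binds a short promoter element, the C-repeat or dehydration-responsive element, and switches on cold-regulated genes for protective proteins, for compatible solutes and for membrane lipids. Constitutive expression in Arabidopsis turns on such genes in the warm and slows growth. S. commersonii gains freezing tolerance in the cold, whereas S. tuberosum gains little. The clones are identified only by array names such as STMEW11. No gene names were used here, so neither the transgene nor any known CBF target could be followed, and the leaf origin could not be checked against marker genes.

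The transgenic S. tuberosum plants had about as many lower as higher clones. A clone was counted from 2-fold on, where the log2 ratio reaches 1 or -1. By this rule 794 clones (6.99% of all) were higher and 827 (7.28%) were lower. The higher clones had a median log2 ratio of 1.44, or 2.71-fold, and the 25th and 75th percentiles were 1.18 and 1.88. The lower clones had a median of -1.46, or 2.75-fold, and the 25th and 75th percentiles were -1.96 and -1.18. The bulk of the column stayed near zero, with a median of 0.009 over all clones and 25th and 75th percentiles of -0.31 and 0.34. Its central spread (the SD from the median absolute deviation) was 0.48, against 0.37 in the S. commersonii 35S::AtCBF3 column and 0.22 to 0.43 in the 6 cold columns. This column has the widest central spread of the 8 and the fewest slides, and the part of the slide number in the spread was not tested.

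The lower tail reached further than the upper one. At a log2 size of 2, 169 clones were higher and 196 lower, and at 3 the counts were 37 and 50. At 4 they were 9 and 20. Beyond a log2 size of 5 there were 12 lower clones and no higher one, and 6 of the 12 were below -6. The extremes of the column were 4.80 and -7.04. In S. commersonii 35S::AtCBF3 the long tail lay on the other side. There 64 clones were higher and 4 lower at a log2 size of 3, and 14 and 0 at 4, with extremes of 5.47 and -3.19. No clone of any other column was below -5, and the lowest value of the cold columns was -4.20.

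**Figure D1:**
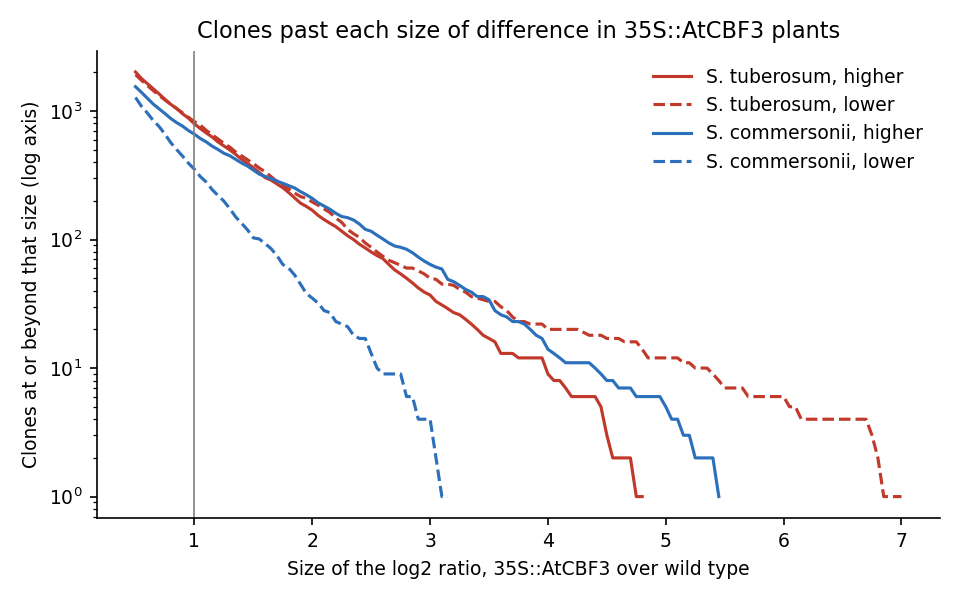
Number of clones at or beyond each size of the log2 ratio in 35S::AtCBF3 plants against wild type, on a log axis, for S. tuberosum (red) and S. commersonii (blue), higher (solid) and lower (dashed). The vertical line marks 2-fold; the lower clones of S. tuberosum run to a log2 ratio of -7.04 and those of S. commersonii end at -3.19.

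STMEW11 had the highest ratio in the transgenic S. tuberosum plants. Its log2 ratio was 4.80 (27.9-fold), and with 35S::AtCBF3 in S. commersonii it was 3.31, rank 41 from the top. After 2 h, 24 h and 7 d of cold it stood at 0.48, 1.53 and 0.79 in the wild species. In cold-treated S. tuberosum it stood at -0.0049, 0.03 and 0.23. The clone was thus more than 2-fold higher in both transgenic columns and at 24 h of cold in S. commersonii, and below 2-fold in every S. tuberosum cold column.

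STMEW74 was second, with a log2 ratio of 4.70 (26.0-fold). With 35S::AtCBF3 in S. commersonii it was at 2.00, rank 210. Its cold values were 0.04, 0.02 and 0.27 in S. commersonii. Those in S. tuberosum were -0.60, -0.05 and 0.92. It was past 2-fold in the transgenic columns and in no cold column.

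STMHQ67 had the lowest value of the whole table, -7.04 (a 132-fold difference). In transgenic S. commersonii it was also lower, at -1.11. Its cold values after 2 h, 24 h and 7 d were -0.38, -0.02 and -0.74 in S. commersonii. Those in S. tuberosum were -0.75, -0.14 and -1.96. STMDB78 followed with -6.81 (112-fold), with -1.21 in transgenic S. commersonii. It stood at 0.76, 0.06 and -0.56 in the cold in S. commersonii and at -0.34, -0.09 and -2.46 in S. tuberosum. Both clones were past 2-fold lower in each transgenic column and after 7 d of cold in S. tuberosum, and within 2-fold in the other 5 columns. Their ratios in transgenic S. tuberosum were the largest in size by more than 4 log2 units over any other column. Whether the S. tuberosum cold columns share a wild-type control with the transgenic column is not stated, so values of these columns are set side by side only.

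**Figure D2:**
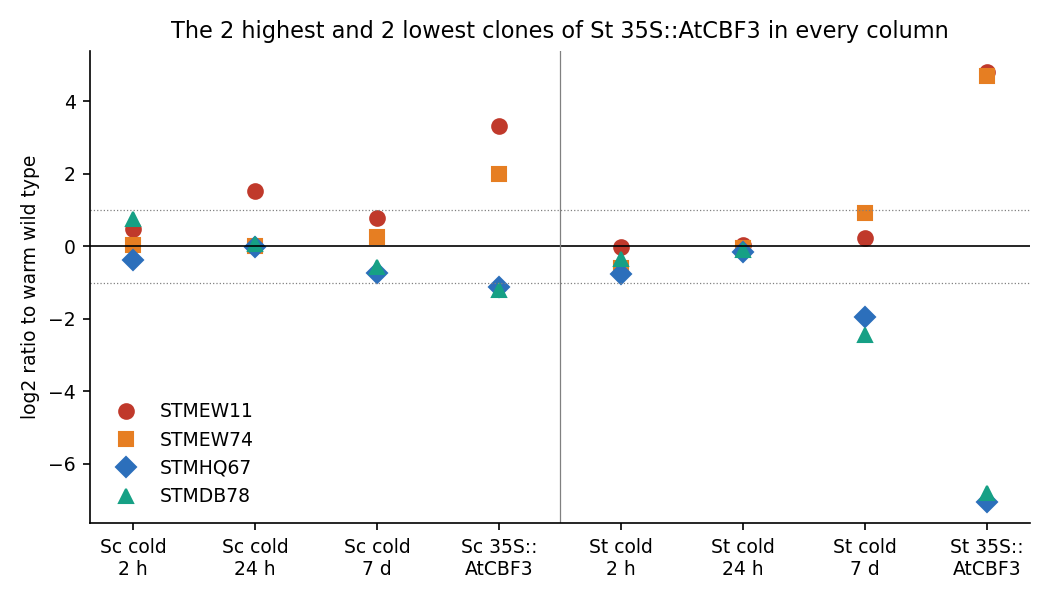
Log2 ratio to warm wild type of the 2 highest (STMEW11, STMEW74) and 2 lowest (STMHQ67, STMDB78) clones of S. tuberosum 35S::AtCBF3 in each of the 8 columns, S. commersonii (Sc) left and S. tuberosum (St) right. Dotted lines mark 2-fold; the higher clones reach 4.80 and 4.70 and the lower ones -7.04 and -6.81 in the last column.

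The extremes held several groups of clones with nearly the same values in all 8 columns. Among the 12 highest clones, 5 had at least 1 other clone within 0.5 log2 units in every column, and among the 12 lowest 7 did. Clones of this kind can carry the same gene, and such groups are then not separate observations. A group of 4 of the 12 highest had 3.98 to 4.55 in transgenic S. tuberosum and 5.12 to 5.47 in transgenic S. commersonii. The same 4 clones were low in the late cold, at -2.10 to -1.71 after 7 d in S. commersonii and at -3.11 to -3.05 in S. tuberosum. They were thus far higher with the transgene in the warm and at least 3-fold lower after 7 d at 2°C. These clones include the highest value of the S. commersonii transgenic column.

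A second group of 3 clones, 1 of them among the 12 highest, was higher in every column. Its values were 3.57 to 4.01 in transgenic S. tuberosum, 1.94 to 2.29 in transgenic S. commersonii, 2.00 to 2.46 over the S. commersonii cold columns and 2.37 to 2.65 over the S. tuberosum cold columns. Among the lowest clones, STMHQ67 belonged to a group of 3 with -7.04 to -6.70 in transgenic S. tuberosum and -1.11 to -0.77 in transgenic S. commersonii. A pair of the lowest clones had -5.68 and -5.45, with -3.28 and -3.55 after 7 d of cold in S. commersonii. A group of 4 clones, 2 of them among the 12 lowest, had -5.37 to -4.76, with -2.37 to -2.01 after 7 d of cold in S. commersonii and only -0.58 to -0.21 in transgenic S. commersonii. These groups were picked out after their values had been seen.

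Across the 12 highest clones the S. commersonii transgenic column ranged from -0.03 to 5.47 with a median of 3.34. There 10 of the 12 were at least 2-fold higher, against 5.81% of all clones. These 10 include the group of 4 nearly identical clones at 5.12 to 5.47, so they may not be 10 separate observations. The 12 lowest clones ranged from -1.74 to -0.08 in that column with a median of -0.89. At least 2-fold lower were 4 of the 12, against 3.11% of all clones. After 7 d of cold in S. commersonii the 12 lowest had a median of -0.91, and 5 were at least 2-fold lower, against 5.42% of all clones. The same limit holds here, since 7 of the 12 lowest have a nearly identical partner.

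The next question was how far the response to the transgene in S. tuberosum was seen in S. commersonii, whose column shares no control RNA with it. Of the 794 higher clones, 296 (37.3%) were also higher in S. commersonii, a class holding 5.81% of all clones. They made up 44.8% of the 660 clones higher in S. commersonii, where 6.99% of all clones were higher in S. tuberosum. Of the 827 lower clones, 182 (22.0%) were also lower in S. commersonii, where 3.11% of all clones were. These were 51.6% of the 353 clones lower there, against 7.28% of all clones lower in S. tuberosum. Most of the remaining clones leaned the same way without reaching 2-fold. The S. commersonii value was above 0 in 654 of the 794 higher clones (82.4%, median 0.62), against 51.2% of all clones. It was below 0 in 701 of the 827 lower clones (84.8%, median -0.53), against 48.8% of all clones. Across all clones the columns correlated with r = 0.48 and a Spearman's rho of 0.40, a description over clones that share slides and, in part, genes.

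**Figure D3:**
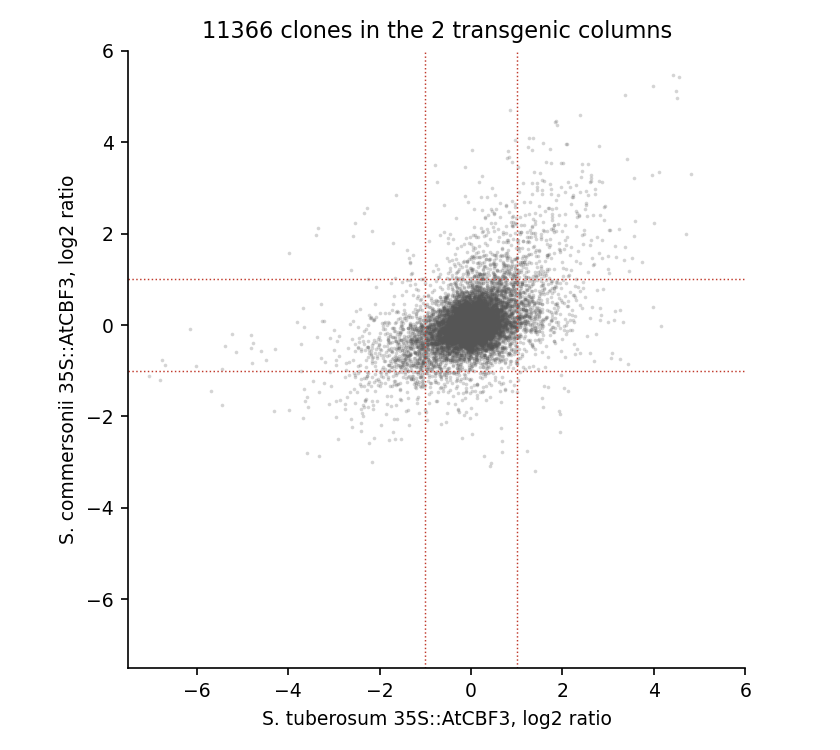
Log2 ratio with 35S::AtCBF3 against wild type in S. tuberosum (horizontal) and S. commersonii (vertical), 1 point for each of 11366 clones, both axes on the same scale. Dotted lines mark 2-fold; points spread along the upper right (296 clones) and along the lower left (182 clones), and the lower left arm is flatter.

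The upper and the lower side differed in size between the species. In clones with S. tuberosum log2 ratios of 1 to 2, the S. commersonii median was 0.50 and 30.9% of the 625 reached 2-fold higher. In clones of 2 to 3 the median was 1.33 and the share 57.6% of 132. Above 3 they were 1.72 and 73.0% of 37 clones. Over these 3 bins the S. commersonii median rose with the S. tuberosum ratio. The rise did not go on to the very top, where the 50 highest clones had a median of 1.72 and the 100 highest 1.89. On the lower side the S. commersonii median went from -0.49 in 631 clones between -2 and -1 to -0.77 in 146 clones between -3 and -2. It was then -0.79 in the 50 clones below -3. The shares at least 2-fold lower were 16.3%, 41.1% and 38.0%.

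Ranked lists were read in both directions. The 100 highest clones of S. tuberosum had a median of 2.81 there and of 1.89 in S. commersonii, 67.4% of the S. tuberosum value, and 71 of them reached 2-fold higher there. The 100 lowest had -2.999 and -0.83, or 27.7%, and 41 were at least 2-fold lower. A list ranked in 1 column is expected to have smaller values in another, so lists ranked in S. commersonii were read in S. tuberosum as well. The 100 highest clones of S. commersonii had a median of 3.14 there and of 1.75 in S. tuberosum, with 76 at least 2-fold higher. The 100 lowest had -1.87 there and -1.54 in S. tuberosum, with 60 at least 2-fold lower. The highest clones ranked in S. commersonii thus kept 55.8% of their value in S. tuberosum (52.7% with 50 clones and 59.8% with 200), and the lowest 82.4% (57.5% and 70.0%). In the direction from S. tuberosum to S. commersonii, the shares kept with 50 and 200 clones were 52.7% and 58.7% for the highest and 21.4% and 31.8% for the lowest. The lowest clones thus kept less than the highest when ranked in S. tuberosum, and more than the highest when ranked in S. commersonii. These contrasts were found on the same values and were not tested.

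Clones were also grouped by their response to cold in S. commersonii and read in transgenic S. tuberosum. These columns come from a different species and share no control RNA with it. Clones lower after 7 d of cold were lower with the transgene as well. The 616 clones at least 2-fold lower at 7 d (5.42% of all) had a median of -1.06 in transgenic S. tuberosum, with 25th and 75th percentiles of -1.77 and -0.26. Of these, 512 were below 0, and 320 (51.9%) were at least 2-fold lower, against 7.28% of all clones. At least 2-fold higher were 27 (4.38%), against 6.99% of all clones. The 320 clones were 38.7% of the 827 lower clones of S. tuberosum. The 352 clones higher at 7 d (3.10%) had a median of 0.52. Of them 108 (30.7%) were at least 2-fold higher and 6 (1.70%) at least 2-fold lower. These 108 were 13.6% of the 794 higher clones.

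The 24 h column gave smaller medians of the same sign. The 141 clones lower at 24 h (1.24%) had a median of -0.60 in transgenic S. tuberosum. Of these, 52 (36.9%) were at least 2-fold lower, against 7.28% of all clones, and 13 (9.22%) higher, against 6.99%. The 301 clones higher at 24 h (2.65%) had a median of 0.20, with 70 (23.3%) at least 2-fold higher and 27 (8.97%) lower. The shares in the opposite direction, on 13 and 27 clones, were near the 6.99% and 7.28% of all clones. The 2 h column showed no such shift of the median. The 1241 clones higher at 2 h (10.9%) had a median of -0.03, and 96 of them (7.74%) were at least 2-fold higher in transgenic S. tuberosum, near the 6.99% of all clones, and 59 (4.75%) at least 2-fold lower, under the 7.28% of all clones. The 17 clones lower at 2 h (0.15%) were too few to describe. Across clones the correlation of transgenic S. tuberosum with S. commersonii in the cold was 0.04 at 2 h, 0.19 at 24 h and 0.42 at 7 d.

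The higher and the lower clones were set side by side in both S. commersonii columns. Of the higher clones 37.3% were higher in the transgenic S. commersonii plants and 13.6% after 7 d of cold. Of the lower clones 22.0% were lower in the transgenic plants and 38.7% after 7 d of cold. Set against the share of all clones called in each column, these shares were 6.42 and 4.39 times as large for the higher clones, and 7.09 and 7.14 times as large for the lower clones. Relative to all clones, the lower clones were thus found about equally often in both columns. With lists of equal length, the 500 most extreme clones of each column, where 4.40% of all clones are on a list, the 500 highest of transgenic S. tuberosum shared 198 (39.6%) with transgenic S. commersonii and 106 (21.2%) with 7 d of cold. The 500 lowest shared 178 (35.6%) and 206 (41.2%). With 200 clones per list, 1.76% of all clones are on a list. The numbers were then 69 (34.5%) and 35 (17.5%) for the highest, and 54 (27%) and 72 (36%) for the lowest.

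**Figure D4:**
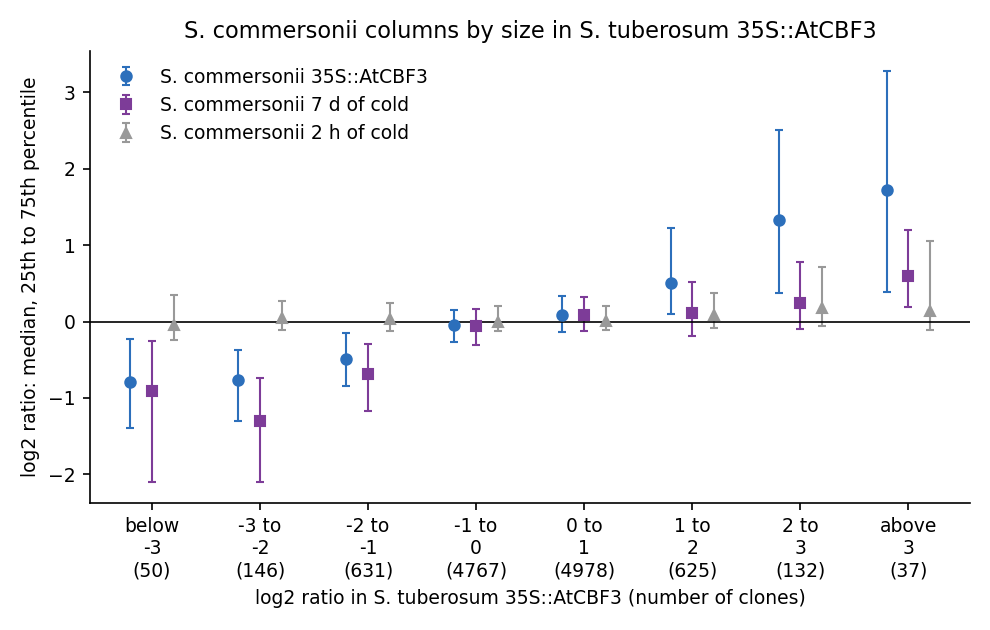
Median log2 ratio (points) with the 25th to 75th percentile over clones (bars) in 3 S. commersonii columns, for clones grouped by their log2 ratio in S. tuberosum 35S::AtCBF3 (number of clones in brackets). The 35S::AtCBF3 medians climb to 1.72 on the right, the 7 d cold medians reach -1.30 on the left, and the 2 h cold medians stay between -0.05 and 0.18.

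A part of the response was past 2-fold in no other column. Of the 794 higher clones, 312 (39.3%) were within 2-fold in all 7 other columns, and of the 827 lower clones 261 (31.6%) were, against 70.1% of all clones. Most clones past 2-fold with the transgene in S. tuberosum were thus past 2-fold in another column as well. The S. tuberosum cold columns enter this count and may share a wild-type control with the transgenic column, so it is a description only. In these cold columns 7.87%, 11.9% and 4.04% of all clones were at least 2-fold higher after 2 h, 24 h and 7 d, and 0.334%, 1.43% and 6.42% lower. The median log2 ratios of the 312 and 261 clones were 1.28 and -1.23, and they reached 4.15 and -5.45. At least 4-fold were 26 of the 312 and 20 of the 261. In transgenic S. commersonii the 312 clones had a median of 0.19, and 224 (71.8%) were above 0, against 46.9% of all 7967 clones within 2-fold in these 7 columns. The 261 had a median of -0.34, and 208 (79.7%) were below 0, against 53.1%. Clones within 1.5-fold in all other columns numbered 151 among the higher (19.0%) and 69 among the lower (8.34%), against 47.6% of all clones. At the other end, 39 higher and 13 lower clones were past 2-fold in the same direction in at least 5 of the 7 other columns, some of which can share controls. Over all clones 68 (0.598%) and 16 (0.141%) met this. Whether a clone past 2-fold only here differs between the species was not tested.

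The lower clones were unevenly spread over the clone names. The names fall into 8 series by their first 4 characters, and what a series stands for (a library, a plate or a printing order) is not stated. In the STMC series, 268 of 1538 clones (17.4%) were at least 2-fold lower and 76 (4.94%) higher, with a median of -0.21 and a central spread of 0.62. In the other series the share of lower clones was between 3.78% and 7.32%. The STMF series had the largest share of higher clones, 21 of 108 (19.4%), and the others had 4.66% to 9.28%. Without the STMC clones, 718 of 9828 clones were higher (7.31%) and 559 lower (5.69%), so that higher clones outnumbered lower ones.

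Within the STMC series the shift covered many blocks, the clones alike in their first 5 characters. Of 157 blocks 10 had a median of -0.25 or below in transgenic S. tuberosum, and all 10 were among the 24 STMC blocks. The lowest was STMCD, with a median of -0.77 over 40 clones, 14 of them at least 2-fold lower and 0 higher. The same block stood at -0.49 after 7 d of cold in S. commersonii, at -0.12 in its transgenic column and at 0.23 after 2 h of cold. In S. commersonii the STMC series also held more lower clones than the rest, with 14.2% against 4.05% after 7 d of cold and 5.98% against 2.66% with the transgene. The part of the name series in the results was not tested. Of the 559 lower clones of the other series, 188 (33.6%) were lower after 7 d of cold in S. commersonii, where 4.05% of these clones were, and 116 (20.8%) in its transgenic column, where 2.66% were. Within the STMC series, 132 of 268 lower clones (49.3%) were lower after 7 d of cold in S. commersonii, against 14.2% of the series. The median of the clones lower at 7 d was -0.89 outside the STMC series and -1.24 within it.

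**Figure D5:**
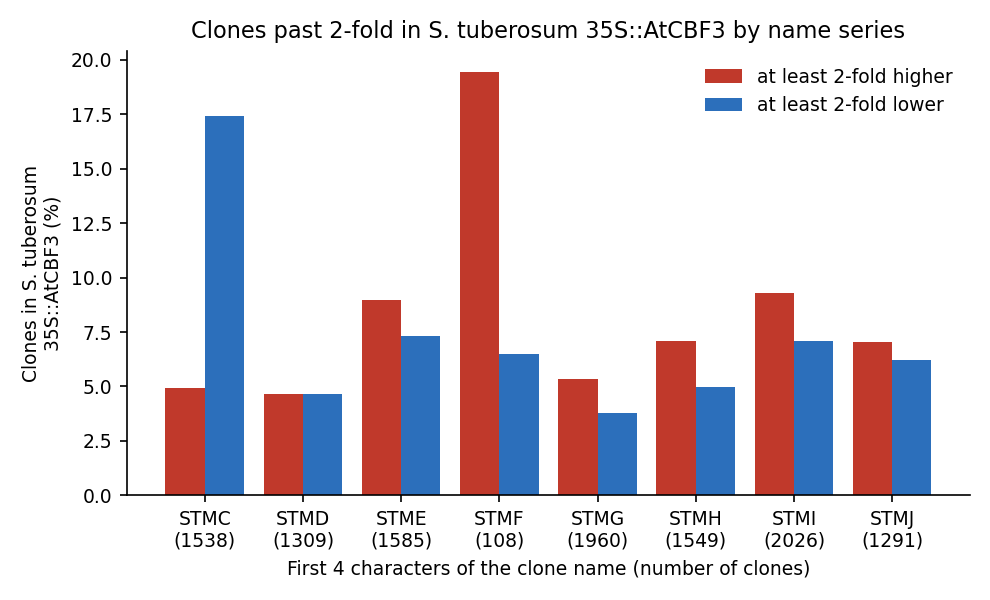
Share of clones at least 2-fold higher (red) and lower (blue) in S. tuberosum 35S::AtCBF3, for the 8 series of clone names (number of clones in brackets). The STMC series has 17.4% lower clones and the small STMF series 19.4% higher clones.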

How the data were processed

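The authors deposited 1 log2 ratio per clone and sample, which joins 2 slides for the S. tuberosum 35S::AtCBF3 sample and 3 for every other sample, per the labels. Dyes were Cy3 and Cy5, coupled through aminoallyl groups, per the labels' protocols, and each channel lists both. How dyes were arranged over slides is not given in the sources used here, and dye bias of single clones may persist. The submitters' processing notes name limma. Neither background correction, normalization and filters nor the log base, centring and direction of the ratio are stated there. The values were read as log2, the scale limma uses, with column medians from -0.0075 to 0.011. No value was missing, and the lowest correlation of a pair of columns was -0.0095.

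Clones past 2-fold, medians, ranks and overlaps were computed with Python 3.11.15, numpy 2.4.6 and pandas 2.3.3. The counting code was run on simulated columns with large planted shifts, which checks the code and not the calls in these data. Intensities and single slides were not used here, so dim clones were kept, and precision is limited by the 2 slides. Gene lists and markers planned for named clones were not run, since no gene names were used here. Named are the 2 highest and 2 lowest clones by the S. tuberosum 35S::AtCBF3 value, and other clones appear only as unnamed groups. The column, lists and comparisons were chosen with earlier results of these data known. Alternatives were other thresholds, centring, scaling to one spread, other list lengths and removal of the STMC clones. The last of these and the lists of equal length were chosen after seeing the data.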

Additional observations from a re-analysis of the deposited data

Results flagged for a closer look

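With 35S::AtCBF3 some clones were past 2-fold in opposite directions in the species. At least 2-fold lower in S. tuberosum and 2-fold higher in S. commersonii were 21 clones, with S. tuberosum values from -3.98 to -1.04 (median -1.66) and S. commersonii values from 1.01 to 2.85 (median 1.58). The reverse held for 15 clones, with 1.001 to 2.13 (median 1.60) in S. tuberosum and -3.19 to -1.03 (median -1.46) in S. commersonii. The 21 clones are 2.54% of the clones lower in S. tuberosum, where 5.81% of all clones were higher in S. commersonii. The 15 are 1.89% of the clones higher in S. tuberosum, where 3.11% of all clones were lower in S. commersonii. Both are thus under the share over all clones. After 7 d of cold in S. commersonii both sets were near 0, with medians of 0.05 and 0.12. No test of these differences was possible, as each species has a single value per clone.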

How the results depend on the processing

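With 1 combined value per clone, no paired analysis and no removal of slides was possible, nor averaging by gene without gene names. Of 80 recomputed values 44 stayed within 1.5 times (counts) or the exact 95% interval over clones (shares and medians), 36 moved and 0 reversed. Counts and shares have no sign to reverse. Centring shifted columns by at most 0.011 and moved none.

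At 1.5-fold 1679 clones were higher and 1623 lower in S. tuberosum 35S::AtCBF3. The higher clones shared 20.8% with 7 d of cold in S. commersonii, against 9.44% of all clones. The lower clones shared 44.4% with 7 d of cold, against 11.9%, and 33.0% with transgenic S. commersonii, against 8.80%. Of the clones higher in transgenic S. commersonii, 50.0% were higher in S. tuberosum. That was 3.39 times the share of all clones, against 6.42 times at 2-fold. Clones higher in S. commersonii in the cold had S. tuberosum medians of 0.0895 (24 h) and 0.30 (7 d), and lower clones of -0.32 and -0.66. At 3-fold 311 were higher and 342 lower, 139 and 160 of them past 3-fold in no other column. Without the share of all clones within 3-fold elsewhere, these counts cannot be set against those at 2-fold. At 3-fold the higher clones shared 9.32% with 7 d of cold, against 0.695% of all clones. The lower clones shared 29.5% with 7 d of cold, against 2.18%, and 13.5% with transgenic S. commersonii, against 0.836%. Of the clones higher in the latter, 39.3% were higher in S. tuberosum, 14.4 times the share of all clones. The medians for 7 d were 1.11 and -1.26.

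With columns scaled to one spread 435 were higher and 456 lower, with 115 each past 2-fold in no other column. This count too lacks the share over all clones. Higher clones then shared 46.0% with transgenic S. commersonii, which was 33.7% of the clones higher there. The clones lower there shared 38.7% with S. tuberosum, and the lower clones of S. tuberosum 44.3% with 7 d of cold. The medians were 0.40 and -0.79 for clones higher and lower at 7 d and -0.38 for those lower at 24 h. Without the STMC clones the median of clones lower at 7 d was -0.89, the share of lower clones also lower at 7 d was 33.6%, and 44.4% of the clones lower in transgenic S. commersonii were lower in S. tuberosum. The 200 highest clones had a median of 1.38 in transgenic S. commersonii, and the rank correlation of the transgenic columns was 0.40. Relative to all clones called, shares are given for 7 d of cold, then transgenic S. commersonii. Those of lower clones were 3.72 and 3.75 times as large at 1.5-fold and 13.5 and 16.1 at 3-fold. They were 9.48 and 9.65 with scaling and 8.30 and 7.81 without STMC clones, so which was larger depended on the setting. For the higher clones the factors were 2.21 and 3.39 at 1.5-fold and 13.4 and 14.4 at 3-fold. With scaling they were 6.44 and 8.81, and without STMC clones 4.15 and 6.25.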
